A study of Mus musculus with 12 samples.

Results

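The small RNA array used for these cells carried 50 probes that were named after transcripts of genes rather than after small RNAs, out of 14242 probes that were not controls. They were taken as all such probes whose identifier held none of the codes for a miRNA (MIRNA, 9709 probes), PST (2716 probes) or TRF (1767 probes). Each was printed in 10 spots per array, which gave 500 gene spots on each of the 12 arrays. The transcript identifier of 46 of the 50 matched a gene symbol in RefSeq, and the remaining 4 (AK004226, ENSMUST00000115991.3, ENSMUST00000133268.8 and ENSMUST00000232505.1) were kept under the name in the files. None of the 50 was in the deposited table of normalized values.

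RNA came from primary mouse aortic smooth muscle cells (MASMC), the contractile cells of the vessel wall. All 4 groups, of 3 arrays each, were transfected with an siRNA for 48 h in medium without serum and then treated for 24 h. The siNT-DMSO group received non-target siRNA and the vehicle DMSO, and the siNT-POVPC group received non-target siRNA and 10 µg/mL of POVPC, an oxidized phospholipid of the kind found in atherosclerotic lesions. The siOCT4-DMSO and siOCT4-POVPC groups received siRNA against Oct4 with the same vehicle or the same dose of POVPC. OCT4, the product of Pou5f1, is a POU-domain transcription factor best known from pluripotent cells. Pou5f1 was not among the 50 gene probes, so the knockdown could not be checked with them. The siNT and siOCT4 groups differed in the siRNA that was added as well as in OCT4, and the effects of these cannot be told apart. The labels number the replicates but do not say whether they came from separate cultures, so that p-values measure the spread between these arrays, which may be technical.

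Total RNA was dephosphorylated, and Cy3 dye was ligated to its 3′ ends. A signal on a gene probe is therefore labelled RNA that hybridized to it. Whether that RNA was a whole mRNA, a fragment of it or an RNA of another gene cannot be read from the array. The gene probes covered several roles. Cpt1a, Acaa2, Ppara, Pex11a and Apoe belong to lipid metabolism. CPT1A loads long-chain fatty acids onto carnitine for entry into mitochondria, where ACAA2 carries out the thiolase step of β-oxidation. APOE is a lipoprotein component that is also made by cells of lesions. Gpi1 encodes glucose-6-phosphate isomerase, an enzyme of glycolysis. Actb encodes the cytoskeletal β-actin, whose mRNA is abundant in smooth muscle cells.

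Most of the gene probes gave no signal well above background. A probe was counted as detected on an array where the scanner software marked more than 0.5 of its usable spots as well above background. By this measure 33 of 50 (66.0%) were detected on no array, 6 on 1 or 2 arrays, 11 on at least 3 and 3 on all 12. Among miRNA probes 1.35% were detected on no array and 52.5% on all 12. The PST probes were closer to the gene probes, with 82.2% on no array and 6.08% on all 12, while TRF probes were detected on all 12 arrays in 75.9%. Even in single spots the gene probes were dark. For 31 of the 50, no spot on any of the 12 arrays was well above background.

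The Actb probe was among the dark ones. Its processed signal was 1.02 on each of the 12 arrays, which was also the 95th percentile of the negative control spots on every array (77 spots each). Atg3 (autophagy), Cav2 (caveolae), Mbp (myelin) and ENSMUST00000232505.1 likewise did not exceed the negative controls on any array. For 11 gene probes the highest signal on any array was under 1.1, and for 25 it was under 2. None of the marker genes for smooth muscle (9 genes), endothelium (6), macrophages and leukocytes (6), fibroblasts (5) or adipocytes (3) was among the gene probes, so the cell type could not be checked with them.

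Sorted by what their genes do, a grouping made after the values had been seen, the 7 probes for membrane, trafficking and cytoskeletal genes (Rab5a, Cav2, Tm9sf1, Atg3, Anxa8, Actb and Cep41) were detected on no array. Of the 5 lipid and peroxisomal genes, 3 were detected on at least 1 array, namely Cpt1a on 6, Apoe on 6 and Pex11a on 1. Of the 6 genes of energy, redox and other metabolism, 4 were detected on at least 1 array. These were Gamt (creatine synthesis) on 12, Gpi1 on 6, Duox1 (a hydrogen peroxide-forming oxidase) on 4 and Gsta4 (a glutathione transferase) on 1. Among the 9 neural, sensory and pigment genes, the homeobox gene Lhx1 was detected on 9 arrays and the odorant receptor Olfr1307 on 3. The odorant receptors and the MHC class I genes H2-M2 and H2-Q7 belong to large families of similar sequence, and which member such a probe bound is uncertain.

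The arrays differed in brightness. The number of gene probes detected per array was 5, 9 and 5 in siNT-DMSO replicates 1 to 3. It was 7, 8 and 5 in siNT-POVPC, 8, 9 and 15 in siOCT4-DMSO, and 5, 5 and 5 in siOCT4-POVPC. The array with 15, siOCT4-DMSO replicate 3, had a median signal over all probes of 24.0, against 5.56 to 8.69 on the other 11 arrays. It was also the only array on which 6 probes were detected, among them Gsta4, H2-Q7, Pex11a, Rps4l and ENSMUST00000115991.3, and without it 39 of the 50 were detected on none. Gsta4 was at 12.2 on that array, with 10 of 10 spots well above background, and at 1.02 on each of the other 11. H2-Q7 was at 12.0 there and between 1.15 and 2.93 on the others. The arrays had 2 scan times, and arrays with the same scan time are called a slide here. That they shared a glass slide is inferred from the scan time alone. Slide 1 held the 6 siNT arrays and siOCT4-DMSO replicates 1 and 2. The bright array and the 3 siOCT4-POVPC arrays were on slide 2.

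To compare groups, signals were quantile-normalized over the 12 arrays, given a floor of 1 and taken to log2. Groups were compared with limma on all 10638 probes that were detected on at least 3 arrays, 11 of which were gene probes: AK004226, Apoe, Cpt1a, Duox1, Gamt, Gpi1, H2-M2, Lhx1, Olfr1307, Taf1a and Uhrf1bp1l. A call required at least a 1.5-fold change and a p under 0.05 after Benjamini-Hochberg adjustment over all 10638. Because a probe that is bright in a single group enters the test through that group, the share of these 11 that was called says nothing about the 50.

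Among the gene probes, 3 switched between detected and not detected with the siRNA. Gpi1 and Uhrf1bp1l were detected on all 6 siNT arrays and on none of the 6 siOCT4 arrays. Uhrf1bp1l encodes a bridge-like lipid transfer protein found at endosomes. Cpt1a did the reverse, on none of the siNT arrays and on all 6 siOCT4 arrays. How many of all probes on the array split in this way was not counted. Nor was it counted how many kept the 6 siNT and 6 siOCT4 arrays apart in signal. How rare such a split is therefore cannot be said.

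Before normalization, the Gpi1 probe gave signals of 18.8, 23.3 and 22.1 in siNT-DMSO and 55.0, 47.8 and 36.4 in siNT-POVPC. In siOCT4-DMSO it gave 1.29, 1.31 and 1.02, and in siOCT4-POVPC 1.02 on all 3 arrays, the level of the negative controls. The siNT and siOCT4 arrays did not overlap. The 57 usable siNT spots lay between 14.9 and 60.4 and the 56 siOCT4 spots between 1.02 and 2.38. Spots are repeats within the same arrays, here and below, and add no replicates to a group.

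The Uhrf1bp1l probe gave 19.0, 23.7 and 25.8 in siNT-DMSO and 50.0, 43.1 and 35.7 in siNT-POVPC. It gave 4.12, 4.02 and 2.18 in siOCT4-DMSO and 1.86, 2.11 and 1.86 in siOCT4-POVPC. The siNT arrays were all higher than the siOCT4 arrays. The siOCT4 signals stood above the negative controls although not well above background, unlike Gpi1 in siOCT4-POVPC, which was at the level of the controls. Of 55 usable siOCT4 spots, 1 was well above background.

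The Cpt1a probe gave 1.02, 1.25 and 1.04 in siNT-DMSO and 1.02 on all 3 siNT-POVPC arrays. It gave 26.9, 22.3 and 15.6 in siOCT4-DMSO and 13.5, 12.2 and 13.2 in siOCT4-POVPC. Here the siOCT4 arrays were all higher. Of the spots, again repeats within these arrays, all 57 usable siOCT4 ones were well above background, against 0 of 59 siNT ones.

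The promoters of the 3 genes after which these probes are named are shown as a description. Whether OCT4 acts on these promoters was not tested. They are the 250 bases before the annotated start in RefSeq on GRCm38.p6, written in the direction of transcription. Gpi1 lies at chr7:34230337-34230586 on the minus strand, Uhrf1bp1l at chr10:89744741-89744990 on the plus strand and Cpt1a at chr19:3323051-3323300 on the plus strand. Capitals mark GC boxes (GGGCGG or, on the other strand, CCGCCC), the kind of site that SP1-type factors bind.
Gpi1: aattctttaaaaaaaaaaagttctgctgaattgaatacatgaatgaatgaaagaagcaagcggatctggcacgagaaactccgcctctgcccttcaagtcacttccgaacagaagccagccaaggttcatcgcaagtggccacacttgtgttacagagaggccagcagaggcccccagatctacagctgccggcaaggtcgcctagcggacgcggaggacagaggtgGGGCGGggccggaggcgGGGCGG
Uhrf1bp1l: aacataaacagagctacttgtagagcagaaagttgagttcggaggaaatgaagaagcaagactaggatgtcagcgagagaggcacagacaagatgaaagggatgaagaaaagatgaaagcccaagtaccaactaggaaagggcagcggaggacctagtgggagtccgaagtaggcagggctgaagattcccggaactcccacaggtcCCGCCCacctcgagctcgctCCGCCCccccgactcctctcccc
Cpt1a: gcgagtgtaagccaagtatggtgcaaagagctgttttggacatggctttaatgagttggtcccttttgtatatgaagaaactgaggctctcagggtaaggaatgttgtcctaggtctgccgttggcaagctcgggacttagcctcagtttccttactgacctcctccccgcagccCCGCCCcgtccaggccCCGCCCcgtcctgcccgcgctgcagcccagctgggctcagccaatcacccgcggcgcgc

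Each of the 3 stretches held at least 1 GC box, as did 32.7% of all 32851 promoters of the same length in the table. The number was 2 in each of the 3, and the share of all promoters with 2 was not counted. None held the octamer ATGCAAAT or its reverse complement ATTTGCAT, a motif bound by POU-domain factors, which 1.6% of all promoters held. Among the 33 genes of the gene probes with a promoter in the table, 18 had a GC box and 0 had the octamer in this window. With a motif this rare, 0 among 33 does not set these genes apart from other promoters. Olfr1307 had no entry.

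With OCT4 knockdown under vehicle (siOCT4-DMSO vs. siNT-DMSO), 3 of the 11 tested gene probes were called, where 1.46% of all tested probes were. Gpi1 and Uhrf1bp1l fell, as 0.949% of all tested probes did, and Cpt1a rose, as 0.508% did. With no normalization between arrays this balance turned, to 0.32% lower and 0.855% higher, while the 3 probes were called in the same directions. Among the 11 tested gene probes, these 3 and Olfr1307 were those whose groups did not overlap, which held for 14.7% of all tested probes. In log2 normalized signal, Gpi1 went from 4.72 ± 0.14 (SD, n = 3) to 0.28 ± 0.23 (n = 3), Uhrf1bp1l from 4.82 ± 0.20 to 1.48 ± 1.14, and Cpt1a from 0.25 ± 0.20 to 3.95 ± 1.28. The fitted log2 change of Gpi1 was -4.43 (SE 0.17, limma adjusted p = 4.29e-05). That of Uhrf1bp1l was -3.33 (SE 0.52, limma adjusted p = 0.0270) and that of Cpt1a 3.70 (SE 0.58, limma adjusted p = 0.0276).

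These fitted changes run into the background of the dimmer group, where only a bound can be given. Against the lowest signal well above background on each array, or the probe's own signal where higher, Gpi1 was at least 6.74-fold lower, Uhrf1bp1l at least 7.21-fold lower and Cpt1a at least 2.46-fold higher in siOCT4-DMSO.

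The bright array moved this comparison. With siOCT4-DMSO replicate 3 left out, which is also the comparison within slide 1, Gpi1 changed by -4.30 (SE 0.15), Uhrf1bp1l by -2.68 (SE 0.16) and Cpt1a by 4.44 (SE 0.17), and Olfr1307 was called as well (limma adjusted p = 0.0117). Of all tested probes 1.39% were called then. With any other array of the 2 groups left out, Gpi1 alone stayed called, and the limma adjusted p was between 0.0505 and 0.144 for Uhrf1bp1l and between 0.0638 and 0.153 for Cpt1a. The share of all tested probes called in these fits was 0.761% to 1.97%. Gpi1 was also the 1 probe called among all 50 when no filter on dim probes was applied, with 0.569% of all 14242 probes called in that fit.

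In siOCT4-POVPC vs. siNT-POVPC groups, the same 3 probes were called in the same directions, and Olfr1307 rose. The share of all tested probes called was 2.58%, with 1.06% higher and 1.51% lower. With no normalization between arrays these shares were 0.743% higher and 16.3% lower, and the 4 probes were called in the same directions. Of all tested probes 19.3% had groups that did not overlap, and among the tested gene probes so had these 4 and AK004226. Gpi1 went from 5.55 ± 0.24 (SD, n = 3) to 0.02 on all 3 arrays, Uhrf1bp1l from 5.45 ± 0.19 to 1.48 ± 0.12, and Cpt1a from 0.02 on all 3 arrays to 4.28 ± 0.18. The fitted log2 changes were -5.53 for Gpi1 (SE 0.14, limma adjusted p = 4.02e-06), -3.97 for Uhrf1bp1l (SE 0.13, limma adjusted p = 1.24e-05) and 4.25 for Cpt1a (SE 0.12, limma adjusted p = 6.16e-06). As bounds, Gpi1 was at least 6.64-fold lower, Uhrf1bp1l at least 6.21-fold lower and Cpt1a at least 3.67-fold higher in siOCT4-POVPC. The comparison shares no array with that under DMSO.

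All 4 probes remained called with any array of these groups left out, beside 1.91% to 2.26% of all tested probes. However, the siNT-POVPC arrays were on slide 1 and the siOCT4-POVPC arrays on slide 2, so within this comparison slide and group cannot be told apart. When slide was added as a block to a fit of the 12 arrays, where siOCT4-DMSO replicate 3 alone connects the slides within a group, the changes were -5.13 for Gpi1, -2.00 for Uhrf1bp1l, 6.47 for Cpt1a and 3.40 for Olfr1307, and all 4 were called, with 8.48% of all tested probes.

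Olfr1307 gave 1.71, 2.74 and 1.55 in siNT-DMSO and 2.01, 2.23 and 1.93 in siNT-POVPC before normalization. It gave 9.75, 11.2 and 9.71 in siOCT4-DMSO and 4.57, 5.17 and 4.90 in siOCT4-POVPC. The siOCT4 arrays were all higher, but the probe was detected in siOCT4-DMSO alone, with 9, 9 and 10 spots well above background, and on 4, 5 and 4 spots in siOCT4-POVPC. Under POVPC its log2 change was 1.72 (SE 0.13, limma adjusted p = 0.000563), between groups in neither of which it was detected. Under DMSO the change was 1.65 (SE 0.47, limma adjusted p = 0.295) and as a bound at least 1.19-fold.

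Likeness over the 12 arrays followed the same split, as a description with the arrays' shared groups and brightness in it. Among the tested gene probes, the pattern most like Gpi1 was that of Uhrf1bp1l (Pearson r = 0.98) and the least like it that of Cpt1a (r = -0.95). The pattern most like Cpt1a was that of Olfr1307 (r = 0.96).

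Acaa2 and Carhsp1, which were detected on no array and did not enter the test, lay in the same direction as Cpt1a. Carhsp1 encodes an RNA-binding cold-shock domain protein. The log2 signal of Acaa2 was 0.02 on all 3 siNT-DMSO arrays and 0.02, 0.25 and 0.16 in siNT-POVPC, against 1.93, 1.97 and 0.62 in siOCT4-DMSO and 1.70, 1.33 and 1.86 in siOCT4-POVPC. That of Carhsp1 was 0.60, 0.42 and 0.65 in siNT-DMSO and 0.42, 0.26 and 0.71 in siNT-POVPC, against 1.88, 1.41 and 0.57 in siOCT4-DMSO and 1.75, 1.37 and 1.66 in siOCT4-POVPC. In these normalized values the siOCT4 and siNT arrays overlapped for Carhsp1 through the bright array. Before normalization they did not, with signals of 1.90 to 3.50 on siOCT4 arrays and 1.14 to 1.71 on siNT arrays. The bright array was then at 3.28. Gabrg1, a subunit of the GABA-A receptor chosen after its values were seen, ran the other way, at 0.96, 0.37 and 1.18 in siNT-DMSO, 1.51, 1.89 and 1.78 in siNT-POVPC, and at most 0.27 on the 6 siOCT4 arrays. These are differences among signals not well above background.

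In the fit without a filter, which held all 50, 6 were called under POVPC, where 1.66% of all 14242 probes were. They were the 4 above with Acaa2 (log2 change 1.49, limma adjusted p = 0.0213) and Gabrg1 (log2 change -1.70, limma adjusted p = 0.00389). Carhsp1 was not called there (log2 change 1.13, limma adjusted p = 0.0582). Of the 21 genes listed for fatty acid oxidation and lipids, 3 had a probe, and of these Cpt1a rose under both treatments, Apoe was tested and not called, and Acaa2 was not among the 11 tested. Gpi1 was the only one of 15 listed genes of glycolysis and energy metabolism with a probe.

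In siNT-POVPC vs. siNT-DMSO groups (effect of POVPC with non-target siRNA), none of the 11 tested gene probes was called by limma, and 0.103% of all tested probes were. At an unadjusted p under 0.05 there were 2, Gpi1 and Uhrf1bp1l, beside 8.76% of all tested probes. The methods' t-test also called these 2 without adjustment, beside 1.79% of all tested probes. With adjustment it called 0 gene probes and 0 of all tested probes. Both were higher on each siNT-POVPC array than on any siNT-DMSO array, and 15.3% of all tested probes had groups that did not overlap. The log2 change of Gpi1 was 0.83 (SE 0.16, limma adjusted p = 0.221), or 1.78-fold, with a range of the adjusted p over the other settings of 0.0765 to 0.706. That of Uhrf1bp1l was 0.64 (SE 0.16, limma adjusted p = 0.308), or 1.55-fold. Among probes that went lower, Cpt1a had the lowest p, at a level where it was not detected in either group (log2 change -0.23, limma adjusted p = 0.680). All 6 arrays were on slide 1.

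In siOCT4-POVPC vs. siOCT4-DMSO groups, none of the 11 was called by limma, and 0 of all 10638 tested probes were. None of the 11 was under 0.05 by limma without adjustment, where 12.7% of all tested probes were. The methods' t-test called 0 of the 11 without adjustment, where it called 3.05% of all tested probes. With adjustment it called 0 of the 11 as well, and 0.0188% of all tested probes. Among the 11, AK004226 and Gpi1 did not overlap between the groups, where 23.1% of all tested probes did not. AK004226 had a log2 change of 0.93 (SE 0.44, limma adjusted p = 0.442), which was 0.36 (SE 0.10) without the bright array. Gpi1 had -0.26 (SE 0.15, limma adjusted p = 0.497) between groups in which it was not detected. Cpt1a, detected on all 6 of these arrays, changed by 0.32 (SE 0.58, limma adjusted p = 0.811). Within slide 2, which holds siOCT4-DMSO replicate 3 as its single vehicle array, 8 gene probes were called, with 13.9% of all tested probes, and these counts rest on that array.

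The difference of the POVPC effects between siOCT4 and siNT cells, fitted over all 12 arrays, was called for none of the 11 gene probes, nor for any tested probe. At an unadjusted p under 0.05 there was 1, Gpi1 (5.3% of all tested probes), whose difference was -1.09 (SE 0.22, limma adjusted p = 0.766). Gpi1 was at background in both siOCT4 groups, so a fall with POVPC could not have been measured there. That of AK004226 was 1.03 (SE 0.52, limma adjusted p = 0.924).

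Some detected gene probes did not follow the groups. Lhx1, a LIM homeobox factor of embryonic kidney and brain, gave the brightest gene signals, and they were either high or near background. It gave 1.44, 94.3 and 1.66 in siNT-DMSO and 86.3, 91.0 and 2.20 in siNT-POVPC. It gave 74.3, 105 and 42.8 in siOCT4-DMSO and 75.9, 59.2 and 66.9 in siOCT4-POVPC. It was thus detected on 1, 2, 3 and 3 arrays of the 4 groups, and the siNT groups held both states. On the 9 bright arrays every usable spot was well above background and the coefficient of variation over an array's spots was at most 4.75%. The log2 change was 2.87 (SE 1.58, limma adjusted p = 0.668) with knockdown under DMSO and 1.92 (SE 1.39, limma adjusted p = 0.675) under POVPC, and neither was called. The SD of the log2 signal was 3.23 in siNT-DMSO and 3.04 in siNT-POVPC, against 1.61 in siOCT4-DMSO and 0.20 in siOCT4-POVPC.

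Apoe, H2-M2 and Duox1 were detected on some arrays of several groups. Apoe gave 2.95, 8.42 and 4.36 in siNT-DMSO, 7.48, 7.51 and 4.34 in siNT-POVPC, 8.03, 10.1 and 8.74 in siOCT4-DMSO, and 4.82, 4.55 and 4.26 in siOCT4-POVPC. It was detected on 1, 2, 3 and 0 arrays of these groups, in that order. After normalization its largest fitted log2 change in the 4 comparisons was 0.17 (SE 0.33), and the groups overlapped. H2-M2 was detected on 1, 0, 3 and 0 arrays, with signals of 3.15, 5.37 and 2.86, then 5.03, 5.24 and 4.61, then 5.93, 6.72 and 12.2, and last 4.01, 3.66 and 3.70. Its 12.2 was on the bright array, and no comparison called it. Duox1 was detected on 4 arrays of 3 groups, with its highest signal, 14.7, in siNT-DMSO replicate 2 against 1.96 and 2.04 in the other siNT-DMSO arrays. Over Apoe, Duox1, Gamt, H2-M2 and Taf1a together, the fitted log2 changes lay between -0.23 and 0.34 with knockdown under DMSO, between -0.27 and 0.15 with knockdown under POVPC, between -0.28 and 0.32 with POVPC in siNT cells and between -0.57 and 0.31 with POVPC in siOCT4 cells. None of these 5 was called, the lowest limma adjusted p in the 4 comparisons being 0.515. On siNT-DMSO replicate 2, Lhx1 and Gamt were also far above the other 2 arrays of the group.

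AK004226, Gamt and Taf1a were detected on all 12 arrays. AK004226 gave 20.1, 20.8 and 20.7 in siNT-DMSO, 22.0, 19.2 and 22.1 in siNT-POVPC, 25.1, 23.5 and 21.9 in siOCT4-DMSO and 22.2, 22.5 and 21.7 in siOCT4-POVPC before normalization. It was the steadiest of the 11 tested gene probes, with a coefficient of variation of 7.04% over the 12 arrays and of 9.12% (median) over the spots of an array. The median of all probes meanwhile varied from 5.56 to 24.0. Gamt, encoding guanidinoacetate methyltransferase, lay between 7.31 and 23.0 and Taf1a, a subunit of the RNA polymerase I initiation factor SL1, between 5.14 and 10.9. Their coefficients of variation were 38.2% and 25.1%.

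Normalization changed the picture for AK004226. On the bright array its signal of 21.9 became a log2 value of 2.98, against 4.41 to 5.11 on the other 11 arrays, and its SD over the 12 arrays went from 0.10 on the log2 scale before normalization to 0.56 after it. In the same way Taf1a on that array became 1.81 against 2.80 to 3.54 elsewhere. None of the 3 was called in any comparison. The closest was AK004226 in siOCT4-POVPC vs. siNT-POVPC groups (log2 change 0.48, SE 0.10, limma adjusted p = 0.0664).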

How the data were processed

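Per the labels, the deposited scanner files were made by the authors with Agilent Feature Extraction 11.0.1.1 and hold intensity values per spot (processed signal with background corrected and a surrogate for dim spots), without normalization between arrays. A second deposited table, with log2 values of 14192 probes for small RNAs, served only to see that it held 0 gene probes. Groups came from the samples' source names.

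Outlier spots were left out (203 of 6000 gene spots), the rest averaged per probe, quantile-normalized over 12 arrays, given a floor of 1 and taken to log2. Groups were compared on their 6 arrays (the difference of the POVPC effects on 12) with limma 3.58.1 in R 4.3.3 (lmFit, eBayes, two-sided). The fit was also run on simulated data. These had no floor, no bright array and no slides, so they do not show how the fit behaves with those. Tables were made with Python 3.11.15 and pandas 2.3.3. The study's methods name quantile normalization and 1.5-fold, and its lists of changed small RNAs name an unpaired t-test, here the methods' t-test, for which equal variances were assumed. Values in every array are given for 7 genes named at the outset, called probes, the lowest p in each direction per comparison, and probes detected on 3 of 3 arrays of a group and 0 of 3 of another. Members and lists were chosen with earlier results of these data known. Alternatives were other scalings, floors, filters, spot summaries, blocks and left-out arrays. Leaving siOCT4-DMSO replicate 3 out before normalization was added after seeing the data.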

Additional observations from a re-analysis of the deposited data

How the results depend on the processing

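Knockdown under DMSO gave 3 called gene probes, and 5 with no normalization between arrays (1.18% of all tested probes). It gave 1 with no filter on dim probes (0.569% of all 14242 probes). By the methods' t-test with Benjamini-Hochberg adjustment it gave 1 as well (0.244% of all tested probes). With an array left out it gave 1 to 4 (0.761% to 1.97%). Under normexp background correction with an offset of 50, which shrank the log2 changes to between -0.54 and 0.26, 0 were called in either knockdown comparison, against 3 under DMSO and 4 under POVPC. Of all tested probes, 0.385% were called with this correction under DMSO and 0.564% under POVPC. Among probes detected on all 12 arrays 0 gene probes were called too, since the called gene probes were not tested there. Of all 6603 probes tested there, 1.24% were called under DMSO and 2.45% under POVPC. A floor of 8 left 2 gene probes under DMSO (0.714% of all tested probes) and 3 under POVPC (1.96%). Under POVPC 4 were called with each array left out (1.91% to 2.26% of all tested probes). There were 6 with no normalization (Duox1 and Taf1a joined), where the share of all tested probes went from 2.58% to 17.1%. With slide as a block there were also 6 (AK004226 and Taf1a joined), where the share was 8.48%. For POVPC in siNT cells, the 0 became 2 with an unadjusted p, by limma (2.34% of all tested probes) or the methods' t-test (1.79%). For POVPC in siOCT4 cells it became 8 with slide as a block (13.9% of all tested probes, from 0), AK004226 turned to -0.085 with no normalization, and Gpi1 turned to 0.31 and 0.23 when scaled to the 75th percentile of all probes or of those detected on all arrays. For the difference of the POVPC effects, 0 became 1 with an unadjusted p (3.46% of all tested probes) and 2 (AK004226 and Cpt1a) with slide as a block (5.87%), and AK004226 turned to -0.12 with no normalization. The cause of these turns was not tested.

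Arrays that share a replicate number deviated together with correlations of -0.26 to 0.48, so the numbers were not taken to pair them. With the replicate number as a block, 3 gene probes were called under DMSO (1.19% of all tested probes) and 4 under POVPC (1.85%). In the other comparisons 0 gene probes were called (at most 0.0564% of all tested probes). These counts of gene probes were the same without the block. By the scanner's weaker mark of a positive and significant signal, 11 probes rather than 3 were detected on all arrays. Above the 95th percentile of negative control spots 19 were, and 5 rather than 33 on none. Leaving an array out gave 3 on all arrays and 33 to 39 on none. Leaving siOCT4-DMSO replicate 3 out before normalization was an alternative chosen after seeing the data. With it, 4 gene probes were called under DMSO (1.43% of all tested probes) and 0 for POVPC in siOCT4 cells (0.0094%). With 3 arrays a group, and 33 probes well above background on no array, the fitted changes of those 33 are between signals without a measured level.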
